A study of Mus musculus with 22 samples.

Results

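Genes of the oligodendrocyte lineage and of myelin were examined for 5-methylcytosine (5mC) and 5-hydroxymethylcytosine (5hmC) in mouse cortex, olfactory bulb (also called the bulb here) and cerebellum. The 9 genes chosen by name for their role in these cells were Olig1, Olig2, Sox10, St18, Mbp, Mog, Mobp, Mag and Cnp, out of the 21718 protein-coding genes of GENCODE vM21 that had a 5mC level. Each was taken at its annotated span on mm10 with every 100 kb bin it overlaps, the 1 Mb bin that holds it, and the bins within 500 kb on either side, called its flanks here. Olig1 and Olig2 lie in the same bin, so the 9 genes give 8 loci and 14 bins of 100 kb. Tissue came from untreated female C57BL/6 mice at 8 weeks of age, and the labels give no other genotype and no treatment. oxBS-seq, which reads 5mC without 5hmC, was run on 3 cortex, 2 olfactory bulb and 2 cerebellum libraries. TAB-seq, which reads 5hmC alone, was run on 3 libraries per tissue. The authors call the replicates technical in one place and biological in another, and say that they came from independent mice. The p-values measure the spread between these libraries, largely pooled over all genes or bins, and part of that spread may be technical. Each tissue was taken whole, so a value averages over all of its cell types, and fewer cells of a type and a lower level per cell cannot be told apart.

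Oligodendrocytes make the myelin sheaths of axons in the central nervous system. Olig2 and Olig1 are basic helix-loop-helix factors and Sox10 is an HMG-box factor, and together they specify the lineage and switch on myelin genes, while St18 is a zinc finger factor of the Myt1 family. Mbp and Mobp encode basic proteins on the inner face of compact myelin, Mog a surface glycoprotein of the outermost layer, Mag an adhesion molecule facing the axon, and Cnp a phosphodiesterase of non-compact myelin. Methylation of cytosine at CpG sites is often low over regulatory DNA in the cells that use it, and 5hmC, its oxidized form, accumulates in gene bodies of neurons and other long-lived cells.

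Promoter sequence is shown for members at both ends of the range of CpG content, and for Mobp because of a repeated motif. The 250 bases before the start site were taken from a set of RefSeq promoters on GRCm38.p6. Windows of 5 of the 9 members were used (Olig2, Cnp, Mag, Mobp and Mog), and those of the others were not read here. Capitals mark each CG, the site at which methylation is measured. The windows are chr16:91225300-91225549 (plus strand) for Olig2, chr11:100574689-100574938 (plus) for Cnp, chr9:120149492-120149741 (plus) for Mobp and chr17:37023399-37023648 (minus) for Mog.
Olig2: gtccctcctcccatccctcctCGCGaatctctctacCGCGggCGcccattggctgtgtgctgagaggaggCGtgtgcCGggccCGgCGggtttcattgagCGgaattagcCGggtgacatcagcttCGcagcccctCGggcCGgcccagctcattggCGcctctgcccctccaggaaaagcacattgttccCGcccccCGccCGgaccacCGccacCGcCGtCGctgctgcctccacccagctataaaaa
Cnp: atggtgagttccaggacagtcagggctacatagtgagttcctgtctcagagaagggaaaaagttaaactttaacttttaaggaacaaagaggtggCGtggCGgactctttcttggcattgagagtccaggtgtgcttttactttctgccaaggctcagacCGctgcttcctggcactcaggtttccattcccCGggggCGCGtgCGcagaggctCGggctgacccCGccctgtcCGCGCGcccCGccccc
Mobp: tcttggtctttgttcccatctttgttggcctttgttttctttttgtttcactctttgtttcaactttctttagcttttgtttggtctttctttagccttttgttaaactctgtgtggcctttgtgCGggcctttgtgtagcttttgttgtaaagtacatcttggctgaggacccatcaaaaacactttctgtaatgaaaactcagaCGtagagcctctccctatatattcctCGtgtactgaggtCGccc
Mog: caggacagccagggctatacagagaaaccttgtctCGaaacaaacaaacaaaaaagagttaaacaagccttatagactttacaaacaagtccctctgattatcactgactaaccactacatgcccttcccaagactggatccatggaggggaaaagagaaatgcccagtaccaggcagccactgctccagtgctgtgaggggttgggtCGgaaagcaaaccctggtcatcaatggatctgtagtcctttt
The Olig2 window held 22 CG, more than 85.2% of 32851 RefSeq promoters of this length, whose median was 6. Cnp held 13 (68.5th percentile), Mobp 4 (37.8th) and Mog 2 (18.8th). ACAAAG, a core that Sox proteins are known to bind, was counted on both strands and occurred 6 times before Mobp, seen above as ctttgt, once before Cnp and not in the windows of Olig2 and Mog, and 16.5% of all promoters held it. The E-box CANNTG, the kind of site that basic helix-loop-helix factors bind, occurred once before Cnp and not in the other windows shown, and 66.2% of all promoters held it. The 3 Mag entries held 3, 3 and 2 CG.

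The 100 kb bins are long beside most of these genes, which bears on every 5mC value. St18 (chr1:6487231-6860940, plus strand, 374 kb) filled 74.7% of its 5 bins, with no other coding gene in them. Mbp (chr18:82475146-82585637, plus, 110 kb) filled 55.2% of its 2 bins, which also reach Galr1 and Zfp236, and Mobp (chr9:120149707-120181484, plus, 31.8 kb) 31.8% of a bin shared with Slc25a38 and Rpsa. Cnp (chr11:100574904-100591729, plus) filled 16.8%, Mog (chr17:37010743-37023398, minus) 12.7%, Sox10 (chr15:79154908-79165240, minus) 10.3% and Mag (chr7:30899176-30914873, minus) 7.85% of theirs. Olig2 (chr16:91225457-91228677, plus) and Olig1 (chr16:91269772-91271933, plus) filled 3.22% and 2.16% of a bin that holds no other coding gene. The bins of Mag hold 9 other coding genes, that of Mog 4 (Zfp57, Gabbr1, Olfr90 and Olfr91), and those of Cnp and Sox10 3 each, so their levels belong to the bin and not to the gene alone. All loci but St18 were rich in CpG sites, from 1160 per 100 kb at Mog, the 82.0th percentile of all bins, to 1790 at the Olig bin, while St18 had 559 against a genome median of 751.

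The files give a level per bin and no read counts, so the depth behind a value is unknown and no counting interval can be given. Tissue labels were checked on 5mC of marker genes. All 6 markers of cerebellar granule neurons were lower in cerebellum than in both other tissues relative to the bins within 500 kb of them (median difference -0.48 against cortex and -0.70 against olfactory bulb on the log2 scale explained with the tests). Of the 6 olfactory bulb interneuron markers, 3 were lower in olfactory bulb than in cortex (0.866% of all genes were), also relative to those bins, among them Meis2 (difference in level -1.50 on that scale, adjusted p = 8.09e-17). Against cerebellum, 3 of the 6 had a lower level in olfactory bulb (18.0% of all genes did) and 0 a higher one (7.69%). Relative to those bins, 3 were lower and 2 higher in olfactory bulb than in cerebellum (10.6% and 12.1% of all genes). Of the 6 cortical excitatory markers, 4 had a higher level in the bulb and 6 in cerebellum than in cortex (26.4% and 55.1% of all genes did), and relative to the same surrounding bins 4 were higher and 1 lower in the bulb and 2 higher in cerebellum. No marker of any list was listed at 0. Mean 5mC over the 6 neuron markers ranged from 0.499 to 0.526 in the cortex libraries, 0.496 to 0.506 in the bulb and 0.490 to 0.506 in cerebellum. That mean joins opposite changes. Against cortex, 3 neuron markers were higher and 2 lower in cerebellum (55.1% and 4.26% of all genes), and 0 higher and 2 lower in the bulb. Snap25 fell from 0.481 in cortex to 0.308 in cerebellum, and Syt1 rose from 0.585 to 0.680. Over the 6 astrocyte markers the mean ranged from 0.589 to 0.630, 0.655 to 0.667 and 0.698 to 0.715. The part of neuron and astrocyte markers in the differences described here was not tested.

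In cortex, 5mC at 6 of the 8 loci lay below that of the median gene, with Mag and St18 above it, and Olig1 and Olig2 had the lowest level and St18 the highest. The mean over the loci was 0.572 ± 0.0184 in cortex (SD over libraries, n = 3), 0.618 ± 0.0155 in the bulb and 0.632 ± 0.00709 in cerebellum (n = 2 each), beside 0.623, 0.653 and 0.665 over all genes. Both means were lowest in cortex. In cortex the order from low to high was the Olig bin (0.400), Mog (0.489), Sox10 (0.547), Mbp (0.575), Cnp (0.595), Mobp (0.608), Mag (0.660) and St18 (0.705). Libraries overlapped between each neighbouring pair from Mog to Mobp, whereas the Olig bin, Mag and St18 did not overlap their neighbours. The Olig bin stood at the 1.93rd percentile of all genes and Mog at the 8.68th, and St18 at the 78.2nd. In olfactory bulb the Olig bin (0.480) and Mog (0.486) overlapped and lay below the rest, and in cerebellum Mog (0.607) stood with Sox10 (0.608), well above the Olig bin (0.459).

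**Figure D1:**
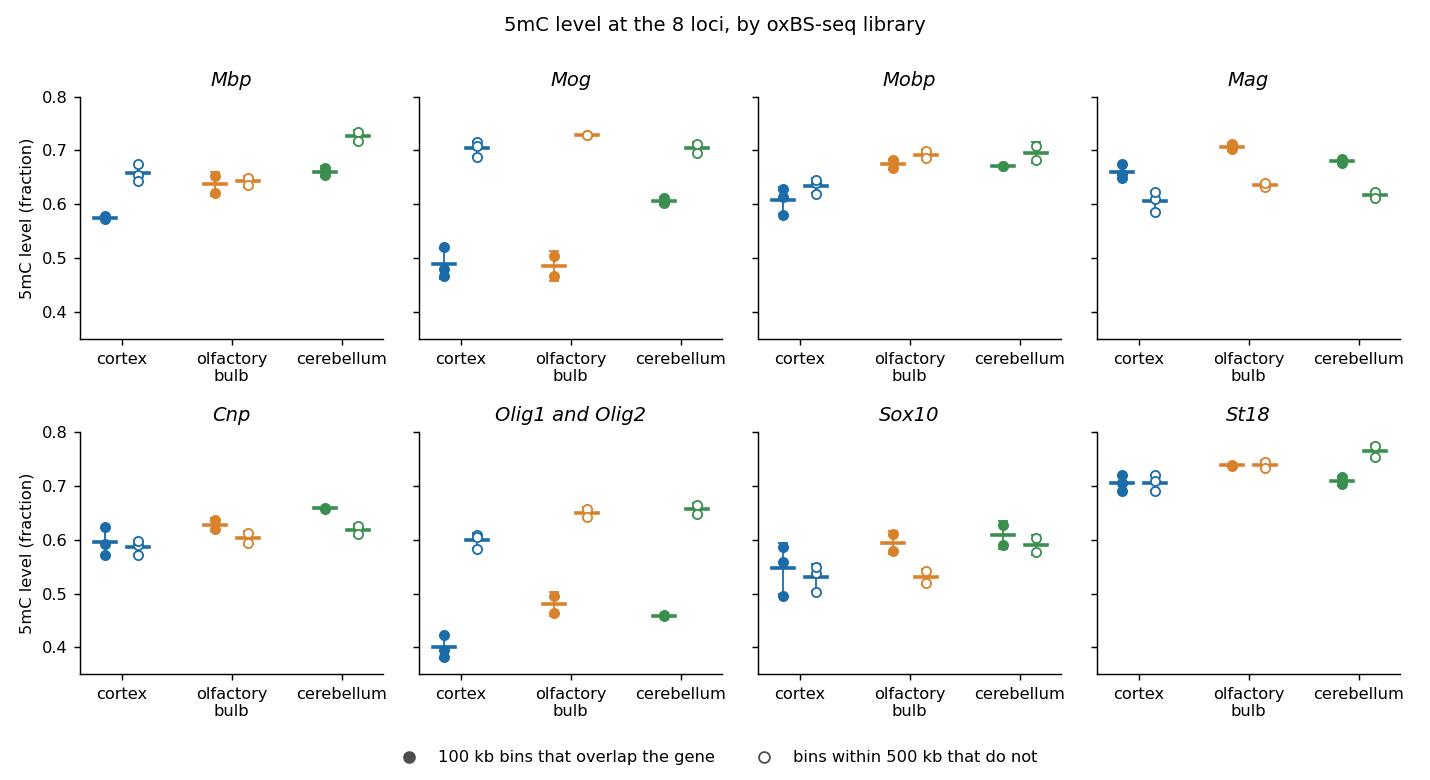
5mC level (fraction, vertical axis, drawn from 0.35 to 0.80) of each locus in every oxBS-seq library by tissue. Filled points are the bins that overlap the gene and open points the bins within 500 kb, with bars for the mean and SD (n = 3, 2 and 2); the Olig bin lies far below its flanks in each tissue, and Mog lies near 0.49 in cortex and olfactory bulb and near 0.61 in cerebellum.

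Between tissues, the members mostly followed the genome, which was less methylated in cortex. Differences are given on the scale of log2(level/(1 - level)), called the log2 ratio, as fitted by limma over all genes with Benjamini-Hochberg adjustment. Over all genes the median difference was 0.20 for olfactory bulb minus cortex, 0.29 for cerebellum minus cortex and 0.079 for cerebellum minus olfactory bulb. Against cortex, 4 of 8 loci were higher in olfactory bulb at an adjusted p under 0.05 (Mbp, Mobp, Mag and the Olig bin), where 26.4% of all genes were, and 6 of 8 were higher in cerebellum (all but Mag and St18), where 55.1% were. Against olfactory bulb, 1 of 8 (Mog) was higher in cerebellum, where 18.0% of genes were. No locus was lower in any of the 3 comparisons, where 0.866%, 4.26% and 7.69% of genes were. The median over the loci was 0.30, 0.38 and 0.029, near the medians of all genes. Once each library was centred on its median, 0, 3 and 3 loci were called, where 1802, 9078 and 7750 of all 21718 genes were. The differences of St18 and Mag between cerebellum and cortex then turned negative (-0.31 and -0.21). Among all genes called, the share that was higher fell from 96.8% to 43.0%, from 92.8% to 36.7% and from 70.0% to 38.5%.

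To take out what a library or a whole region shares, each gene was set against its own flanks. On that scale 3 loci differed between tissues: Mbp, which was lower than its flanks in cortex and cerebellum but was not called so in olfactory bulb; Mog, whose deep dip in cortex and olfactory bulb was shallower in cerebellum; and St18, which fell below its flanks in cerebellum. Of 8 loci, 1 was higher in olfactory bulb than in cortex relative to its flanks (3.08% of all genes were) and 0 lower (2.56%), 1 was higher and 1 lower in cerebellum than in cortex (11.5% and 11.7%), and 1 was higher and 2 lower in cerebellum than in olfactory bulb (10.6% and 12.1%). With so few loci these counts do not set the members apart from all genes, and the size and position of each difference are given with its gene. For the other loci the 95% intervals of the difference crossed 0, except those of Sox10 (0.28, from 0.090 to 0.47, olfactory bulb minus cortex, adjusted p = 0.0821, and -0.27, from -0.47 to -0.061, cerebellum minus olfactory bulb, adjusted p = 0.0623) and Cnp (0.20, from 0.036 to 0.36, cerebellum minus cortex, adjusted p = 0.0758), which did not pass the threshold. Without cortex replicate 2 that of Cnp passed (0.25, adjusted p = 0.0434), as it did with flanks of 250 kb (0.28, adjusted p = 0.0356), and without cortex replicate 2 or 3 the second of Sox10 did (adjusted p = 0.0437 and 0.0283).

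**Figure D2:**
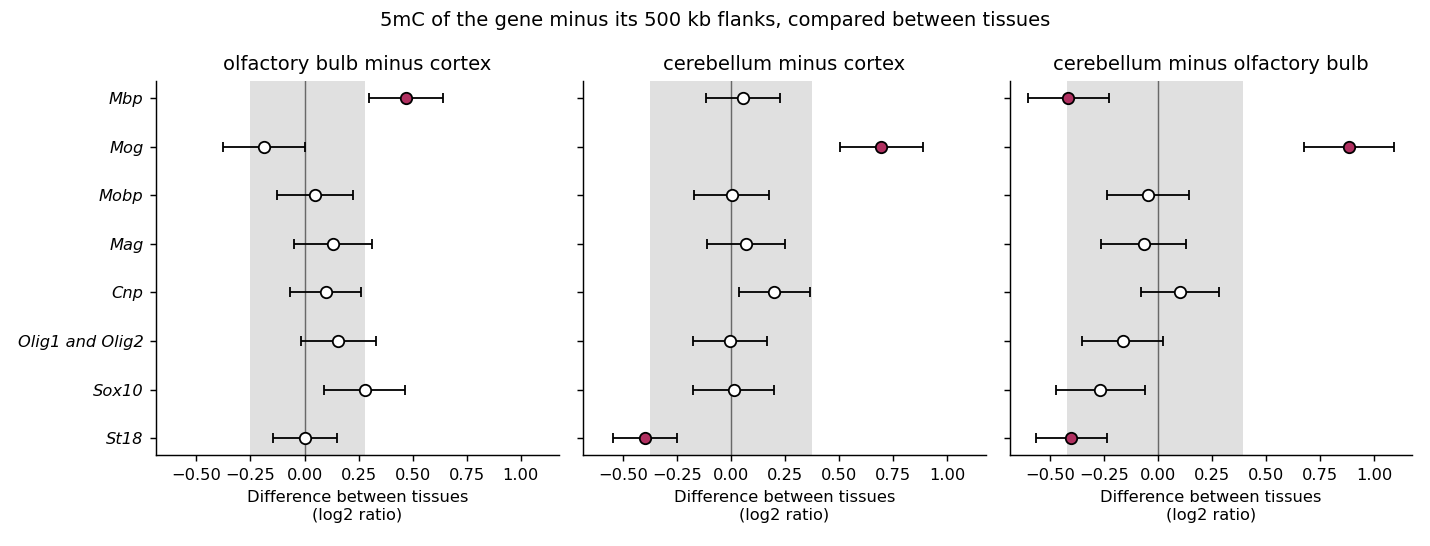
Difference between tissues in the gene's 5mC relative to its 500 kb flanks (log2 ratio, horizontal axis) for each locus, with 95% intervals; grey bands span the 5th to 95th percentiles of all 21718 genes, and filled points passed an adjusted p of 0.05. Mbp passes in olfactory bulb minus cortex and in cerebellum minus olfactory bulb, and Mog and St18 pass in both comparisons with cerebellum.

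The bin of Olig1 and Olig2, the factors that specify the lineage, was the least methylated of the 11 bins around it in all 3 tissues. Its 5mC level was 0.424, 0.395 and 0.383 in the cortex libraries, 0.496 and 0.465 in the bulb and 0.458 and 0.460 in cerebellum. Its flanks had 0.599 ± 0.0137, 0.650 ± 0.0102 and 0.656 ± 0.0123. No library of the bin reached any library of the flanks. The log2 ratio of the bin minus its flanks was -1.16 in cortex (SE 0.049, adjusted p = 6.18e-09), -1.01 in olfactory bulb (SE 0.060, adjusted p = 1.22e-07) and -1.17 in cerebellum (SE 0.060, adjusted p = 3.51e-08), which put it at the 2.45th, 4.66th and 3.23rd percentiles of all genes. Within a tissue, 47.3% of all genes were lower than their flanks in cortex and 43.2% in each of the other tissues. No difference in the dip between tissues was called: it was 0.16 (95% interval -0.015 to 0.33) for olfactory bulb minus cortex, -0.0070 (-0.18 to 0.17) for cerebellum minus cortex and -0.16 (-0.35 to 0.025) for cerebellum minus olfactory bulb. The level itself was lower in cortex than in olfactory bulb (0.47, adjusted p = 0.00224) and cerebellum (0.35, adjusted p = 0.00824). The cortex libraries lay below all others, and so did those of the flanks. The call against olfactory bulb was lost without olfactory bulb replicate 1 (0.38, adjusted p = 0.138), and the call against cerebellum without cerebellum replicate 1 (0.35, adjusted p = 0.0634) or replicate 2 (0.34, adjusted p = 0.0536).

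Sox10, the HMG-box factor that acts with Olig2 on myelin genes, was spread more widely among cortex libraries than any other locus. The levels were 0.559, 0.587 and 0.495 in cortex, 0.610 and 0.579 in the bulb and 0.627 and 0.590 in cerebellum. Cortex replicate 3 was low and cortex replicate 2 overlapped olfactory bulb, while both cerebellum libraries lay above all of cortex. The level was higher in cerebellum than in cortex by 0.36 (adjusted p = 0.00876), a call that was lost without cortex replicate 3 (0.21, adjusted p = 0.0793) or cerebellum replicate 1 (0.25, adjusted p = 0.210). The difference between olfactory bulb and cortex of 0.28 (adjusted p = 0.0718) passed without cortex replicate 2 (0.40, adjusted p = 0.0129). Sox10 stood above its flanks in olfactory bulb (0.38, adjusted p = 0.000363) and was not called in cortex (0.097, adjusted p = 0.121) or cerebellum (0.11, adjusted p = 0.162), where 28.5%, 29.1% and 27.8% of all genes were higher than their flanks.

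St18, the zinc finger gene, was the one locus long enough to be followed from start to end, and its 5mC in cerebellum changed along the gene. Averaged over its 5 bins the level was 0.720, 0.706 and 0.690 in cortex, 0.739 and 0.738 in the bulb and 0.716 and 0.703 in cerebellum. Cortex and cerebellum overlapped, and the bulb lay above both. The flanks had 0.706 ± 0.0148, 0.739 ± 0.00823 and 0.764 ± 0.0140, so they were highest in cerebellum and the gene was not. Relative to its flanks St18 was therefore lower in cerebellum than in cortex (-0.40, SE 0.068, adjusted p = 0.00226) and than in olfactory bulb (-0.40, SE 0.074, adjusted p = 0.00367). In cerebellum it stood below its flanks by -0.41 (adjusted p = 3.62e-05), against -0.0072 in cortex (adjusted p = 0.884) and -0.0051 in olfactory bulb (adjusted p = 0.935). Of all genes, 943 lay as low or lower in the comparison with cortex and 1243 in that with olfactory bulb.

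The difference sat in the part of St18 nearest its end. The bin that starts at 6700001 had 0.657, 0.665 and 0.610 in cortex, 0.652 and 0.643 in the bulb and 0.520 and 0.547 in cerebellum. Both cerebellum libraries lay below every other library, and the bin was the lowest of the 15 in and around the gene in cerebellum. The difference from cortex was -0.66 (SE 0.12, adjusted p = 1.06e-07) and that from olfactory bulb -0.68 (adjusted p = 1.84e-06). The last bin, from 6800001, was lower too (-0.31, adjusted p = 0.0127, and -0.36, adjusted p = 0.0165). These calls were lost when any of several libraries was left out: against cortex without cortex replicate 1 or cerebellum replicate 2 (highest adjusted p = 0.123), and against olfactory bulb without cerebellum replicate 2 or either olfactory bulb library (highest adjusted p = 0.142). The 3 bins nearer the start went the other way, being higher in cerebellum than in cortex by 0.32 (adjusted p = 0.0108), 0.67 (adjusted p = 7.27e-08) and 0.44 (adjusted p = 0.00036), beside a median of 0.43 over all bins. Without cerebellum replicate 1 the calls of the bins from 6400001 (0.22, adjusted p = 0.190) and 6600001 (0.30, adjusted p = 0.0794) were lost. With only the bin of the start site in place of all 5, the difference from the flanks was -0.11 (adjusted p = 0.392) against cortex and -0.17 (adjusted p = 0.233) against olfactory bulb. With all 5 bins both calls held without any single library.

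**Figure D3:**
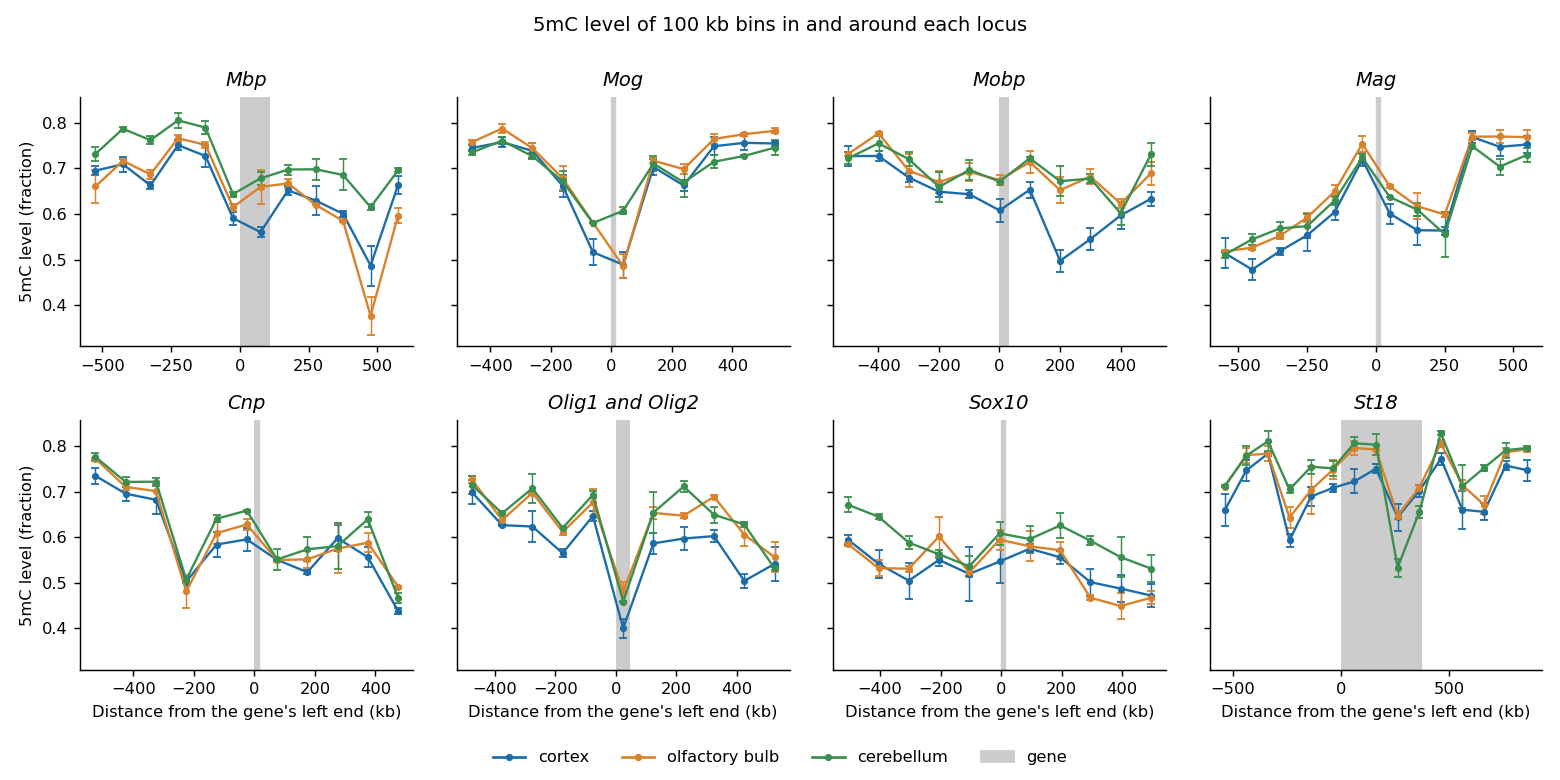
Mean 5mC level (fraction, vertical axis, drawn from about 0.31 to 0.86) of each 100 kb bin in and around the 8 loci, by distance in kb from the gene's left end on the chromosome, with SD bars (n = 3, 2 and 2 libraries) and the gene shaded. The cerebellum line drops to 0.534 in the St18 bin where cortex has 0.644 and olfactory bulb 0.648, and all 3 lines dip at the Olig bin.

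Mbp, which encodes myelin basic protein, was called lower than its flanks in cortex and cerebellum and not in olfactory bulb. Its level was 0.573, 0.578 and 0.575 in cortex, 0.653 and 0.621 in the bulb and 0.668 and 0.654 in cerebellum. The cortex libraries lay below all others and close together. In the flanks the levels were 0.655, 0.675 and 0.643 in cortex, 0.650 and 0.635 in the bulb and 0.735 and 0.718 in cerebellum, so olfactory bulb was as low as cortex there. The log2 ratio of the gene minus its flanks was -0.50 in cortex (adjusted p = 2.83e-06), -0.034 in olfactory bulb (adjusted p = 0.630) and -0.45 in cerebellum (adjusted p = 4.69e-05). In olfactory bulb it was called lower with flanks of 250 kb (-0.26, adjusted p = 0.00529) or with the start-site bin alone (-0.17, adjusted p = 0.0265). The difference was 0.47 for olfactory bulb minus cortex (SE 0.077, adjusted p = 0.00718), reached or passed by 162 genes, Mbp included. For cerebellum minus olfactory bulb it was -0.41 (SE 0.085, adjusted p = 0.00611). Against cortex it was lost without olfactory bulb replicate 1 (0.42, adjusted p = 0.0695), and the other was lost without cerebellum replicate 1 (-0.40, adjusted p = 0.0536).

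The bins of Mbp differed too. Of its 2 bins, the one from 82500001, which holds most of the gene, had 0.556, 0.551 and 0.573 in cortex, 0.685 and 0.633 in the bulb and 0.688 and 0.668 in cerebellum. It was higher than cortex by 0.61 in olfactory bulb (adjusted p = 9.71e-06) and by 0.73 in cerebellum (adjusted p = 6.96e-09), the first lost without olfactory bulb replicate 1 (0.44, adjusted p = 0.0510). The bin from 82400001 holds the start of the annotated span, taken throughout as the start site. It differed less, by 0.15 (adjusted p = 0.299) and 0.32 (adjusted p = 0.00896), the latter lost without cerebellum replicate 1 (0.30, adjusted p = 0.0765). Any other transcript start within Mbp was not examined. On the flank side, the bin from 82900001, which overlaps Zfp516 and was named after its values were seen, had 0.487 ± 0.0439 in cortex, 0.377 ± 0.0422 in the bulb and 0.615 ± 0.00663 in cerebellum, and was thus lowest in olfactory bulb (-0.65 against cortex, adjusted p = 1.71e-06). With flanks of 250 kb, which leave that bin out, the difference of Mbp was 0.34 for olfactory bulb minus cortex (adjusted p = 0.0586) and -0.25 for cerebellum minus olfactory bulb (adjusted p = 0.0938), and with the start-site bin alone the first was 0.24 (adjusted p = 0.106).

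Mog, the gene of a surface glycoprotein of myelin, showed the largest 5mC differences of the 8 loci, and its bin was the lowest of 11 in cortex and olfactory bulb. That bin was also the richest of the 11 in CpG sites (1160), and the part of CpG content was not tested. The level was 0.520, 0.480 and 0.466 in cortex, 0.505 and 0.466 in the bulb and 0.612 and 0.602 in cerebellum. Cortex and olfactory bulb overlapped and both cerebellum libraries lay above all of them. Over all genes the flanks had means of 0.647, 0.675 and 0.688, whereas those of Mog hardly moved, with 0.704 ± 0.0141, 0.728 ± 3.39e-05 and 0.704 ± 0.0113. The bin lay below them by -1.32 in cortex (adjusted p = 5.29e-09), -1.51 in olfactory bulb (adjusted p = 1.73e-08) and -0.62 in cerebellum (adjusted p = 8.3e-06). Relative to its flanks it was higher in cerebellum by 0.69 than in cortex (SE 0.086, adjusted p = 0.000392) and by 0.88 than in olfactory bulb (SE 0.095, adjusted p = 0.000137), reached or passed by 100 and 71 genes. The levels themselves differed by 0.69 (adjusted p = 1.33e-06) and 0.71 (adjusted p = 1.38e-05), reached or passed by 1305 and 452 genes. These 4 calls held under every alternative tried. Since Mog covers 12.7% of the bin, which it shares with Gabbr1, a GABA-B receptor subunit, and Zfp57, a zinc finger gene, the data do not tell which of them the difference belongs to. The next bin, from 36900001, was higher in cerebellum (0.580) than in cortex (0.516), by 0.37 (adjusted p = 0.00263), and no other flank bin was called higher there than in cortex.

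For the other 3 myelin genes, Mobp, Cnp and Mag, no tissue difference relative to the flanks was called. Mobp had 0.614, 0.629 and 0.580 in cortex, 0.682 and 0.667 in the bulb and 0.671 and 0.671 in cerebellum, all of cortex below the rest, and differed from cortex by 0.42 (adjusted p = 0.00595) and 0.40 (adjusted p = 0.00274). Its flanks moved with it, so that relative to them the differences were 0.048 (95% interval -0.13 to 0.22) and 0.00141 (-0.17 to 0.18). Cnp had 0.591, 0.623 and 0.571 in cortex, 0.637 and 0.619 in the bulb and 0.659 and 0.657 in cerebellum, and was higher in cerebellum than in cortex by 0.39 (adjusted p = 0.00325). Cortex and olfactory bulb overlapped at Cnp, and cerebellum lay above both. Mag had 0.674, 0.656 and 0.650 in cortex, 0.712 and 0.702 in the bulb and 0.684 and 0.677 in cerebellum. It was called in olfactory bulb against cortex alone (0.31, adjusted p = 0.0321). That call was lost without cortex replicate 2 (0.30, adjusted p = 0.0584) and without olfactory bulb replicate 2 (0.35). The cerebellum minus cortex difference of Mag, 0.13, turned to -0.21 once libraries were centred on their medians. Mag stood above its flanks in all 3 tissues, by 0.33, 0.47 and 0.40 (adjusted p at most 0.000162), but with its start-site bin alone no call was left (-0.033 in cortex, 0.15 in the bulb and 0.12 for cerebellum). All 4 calls of olfactory bulb against cortex were lost without olfactory bulb replicate 1, with differences of 0.28 for Mbp, 0.37 for Mobp, 0.28 for Mag and 0.38 for the Olig bin. Fewer of all genes were called without that library too, and the median over all genes was 0.18.

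Of the 14 bins inside the members, 8 were higher in olfactory bulb than in cortex (37.6% of all bins were) and 0 lower (2.18%), 10 were higher and 2 lower in cerebellum than in cortex (71.9% and 4.44%), and 1 was higher and 2 lower in cerebellum than in olfactory bulb (35.3% and 7.69%). Both lower bins were those at the end of St18, and the 1 that was higher in cerebellum than in olfactory bulb was that of Mog. After centring on library medians 8 differences between cerebellum and cortex turned negative, among them those of the bins nearest the start of St18 and Mbp.

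5hmC was given per 1 Mb, a window that at these loci holds from 2 (St18) to 60 (Mag) other coding genes, so it describes the neighbourhood of a member. In cerebellum all 8 bins had less 5hmC than in either other tissue, yet against cortex 7 of them were lowered by less than the median bin of the genome. Of these, Mobp was level with that median (log2 ratio -0.963 beside -0.967), which by definition has as many bins above it as below. Mbp had 0.194, 0.205 and 0.191 in cortex, 0.192, 0.201 and 0.190 in the bulb and 0.134, 0.131 and 0.137 in cerebellum, so that cortex and olfactory bulb overlapped. Mog had 0.0741, 0.0863 and 0.0724 in cortex, 0.0513, 0.0553 and 0.0507 in the bulb and 0.0341, 0.0345 and 0.0354 in cerebellum. Its bin, which holds 44 other coding genes, was the poorest in 5hmC of the 8 in each tissue, and its tissues did not overlap. St18 had 0.144, 0.161 and 0.133 in cortex, 0.117, 0.125 and 0.122 in the bulb and 0.111, 0.111 and 0.105 in cerebellum, with no overlap between tissues. The means of the other 5 bins ran from 0.150 (Mag) to 0.203 (Olig) in cortex, 0.124 to 0.174 in the bulb and 0.0996 to 0.144 in cerebellum. Over all 2581 bins used the means were 0.163 ± 0.00946, 0.145 ± 0.00431 and 0.0949 ± 0.00176.

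For olfactory bulb minus cortex, 5 of 8 bins were lower in 5hmC, where 67.7% of all bins were, and 0 were higher (3.25%). They were Mog (-0.60, adjusted p = 5.06e-15), Mag (-0.32), St18 (-0.30), Mobp (-0.30) and Olig (-0.27). The fit gave all 1 Mb bins the same spread, with an SE of 0.073 for each 5hmC difference. These p-values thus do not measure the spread of a single bin between its libraries. Cnp (-0.15, adjusted p = 0.0558), Sox10 (-0.15, adjusted p = 0.0597) and Mbp (-0.020, adjusted p = 0.809) did not pass, although Cnp and Sox10 did without cortex replicate 3 (-0.20 and -0.19) or olfactory bulb replicate 2 (-0.18 and -0.19). For cerebellum minus cortex 8 of 8 were lower (97.6% of all bins, with 0.426% higher), from -1.22 at Mog and -0.96 at Mobp to -0.48 at St18, with a median of -0.64 beside -0.97 over all bins. For cerebellum minus olfactory bulb 8 of 8 were lower (91.8%, with 1.20% higher), with a median of -0.46 beside -0.72. St18 was least lowered in that comparison, by -0.18 (adjusted p = 0.0160), a call that was lost without olfactory bulb replicate 2 (-0.16, adjusted p = 0.0599) or cerebellum replicate 3 (-0.15, adjusted p = 0.0816). When each library was centred on its median, 7 of the 8 differences between cerebellum and cortex turned positive, all but that of Mog, and the largest was St18 with 0.56, and so did all 8 between cerebellum and olfactory bulb and those of Cnp, Sox10 and Mbp between olfactory bulb and cortex. The deposited values put St18 at the 86.6th percentile of all bins for cerebellum minus cortex and at the 90.5th for cerebellum minus olfactory bulb.

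**Figure D4:**
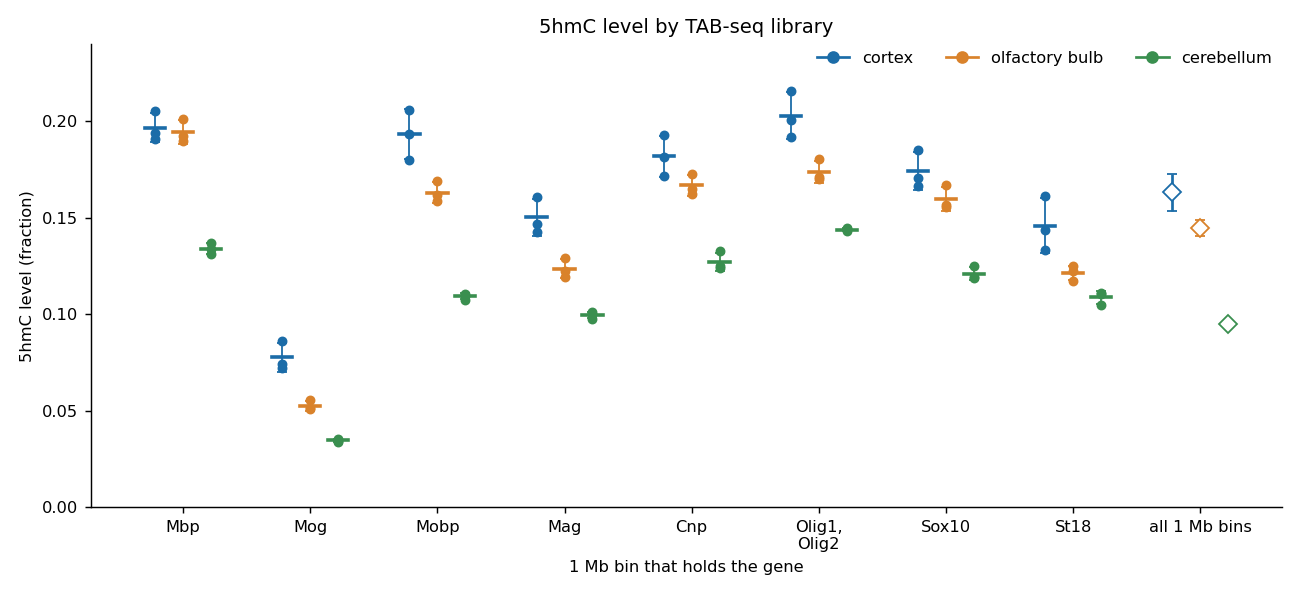
5hmC level (fraction, vertical axis from 0) of the 1 Mb bin that holds each locus, one point per TAB-seq library with the mean and SD (n = 3 per tissue); diamonds give the mean over all 1 Mb bins. In the deposited values cerebellum is lowest at every locus, and the Mog bin is lowest of the 8 in each tissue.

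Against the neighbouring 1 Mb bins that its flanks reach, St18 was richer in 5hmC in each tissue, by 0.0321 ± 0.00255 in cortex, 0.0361 ± 0.00107 in the bulb and 0.0625 ± 0.00393 in cerebellum (n = 3). Mbp exceeded its neighbours by 0.0246 ± 0.00345 in cortex and 0.0497 ± 0.00219 in cerebellum and not in olfactory bulb (-0.00344 ± 0.00210). For both genes the excess was thus largest in cerebellum, and libraries of cerebellum did not overlap those of the other tissues. Mag exceeded its neighbour in cortex and the bulb by more than any other locus did (0.0815, 0.0652 and 0.0581 by tissue), and Mog lay below its neighbour in all 3 tissues (-0.0287, -0.0217 and -0.0207). These differences were not tested.

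5mC over the same 1 Mb bins was higher than in cortex for 4 of 8 bins in olfactory bulb (60.8% of all bins) and 7 of 8 in cerebellum (82.5%), and higher in cerebellum than in olfactory bulb for 2 of 8 (49.8%), Mbp (0.48, adjusted p = 2.03e-06) and Sox10 (0.23, adjusted p = 0.0237, lost without olfactory bulb replicate 2 or cerebellum replicate 1). Mog was the exception in cerebellum against cortex (-0.031, adjusted p = 0.728), although its own 100 kb bin was higher there. After centring on library medians, 5 of the 8 differences between cerebellum and cortex turned negative (St18, Mag, Cnp, Sox10 and Olig). No bin was lower in any of these comparisons, where 0.697%, 3.02% and 7.36% of all bins were. Added together, 5mC and 5hmC ranged from 0.703 (Sox10, olfactory bulb) to 0.862 (St18, olfactory bulb), and 9 of the 24 differences in the sum between tissues were larger than their error. The sum at Mog was lower in cerebellum by -0.0474 ± 0.0189 than in cortex and by -0.0412 ± 0.0141 than in olfactory bulb (combined SD of the groups), and at Mag by -0.0319 ± 0.00814 than in olfactory bulb, beside -0.0258 ± 0.0126 for the mean over all bins. The others were Mobp (0.0312 ± 0.0249 for olfactory bulb minus cortex and -0.0236 ± 0.0179 for cerebellum minus olfactory bulb), Olig (0.0269 ± 0.0267 and -0.0309 ± 0.0193), Mag (-0.0202 ± 0.0196 for cerebellum minus cortex) and Cnp (-0.0193 ± 0.0182 for cerebellum minus olfactory bulb). 5hmC made up 26.4% of the sum at the Olig bin in cortex, 21.8% in the bulb and 18.8% in cerebellum, beside 19.4%, 17.0% and 11.5% over all bins. At St18 the shares were 17.0%, 14.1% and 12.8%, and at Mog 9.76%, 6.65% and 4.64%. 5mC and 5hmC came from different libraries and the sum was not tested.

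Of 27 further genes of the lineage in 4 lists, 15 were higher in olfactory bulb than in cortex, 14 in cerebellum than in cortex and 2 in cerebellum than in olfactory bulb, and none was lower, with medians of 0.30, 0.27 and 0.025, where 26.4%, 55.1% and 18.0% of all genes were higher. Among 6 lineage factors 3 were higher in olfactory bulb, led by Sox8 (0.32, adjusted p = 0.0327) and Zfp488 (0.32, adjusted p = 0.0465), and 3 in cerebellum, led by Myrf, the master factor of myelin genes (0.44, adjusted p = 0.000942), and Tcf7l2 (0.38, adjusted p = 0.00402). Among 10 other myelin and membrane genes 6 and 4 were higher than in cortex, and Omg and Ermn were higher in cerebellum than in both other tissues. Omg, oligodendrocyte myelin glycoprotein, had 0.602, 0.576 and 0.564 in cortex, 0.641 and 0.633 in the bulb and 0.735 and 0.720 in cerebellum (0.95 against cortex, adjusted p = 4.88e-10). The 3 groups of Omg did not overlap. Among 6 enzymes 3 and 4 were higher than in cortex, led in cerebellum by Enpp2 (0.74, adjusted p = 2.42e-07) and Ugt8a, which makes the myelin lipid galactosylceramide (0.62, adjusted p = 5.26e-06). Among 5 precursor genes 3 and 3 were higher, with Gpr17 (0.37, adjusted p = 0.0137) and Cspg4 (0.33, adjusted p = 0.0311) in the bulb and Enpp6 (0.45, adjusted p = 0.000731) in cerebellum. Single libraries decided the calls of Sox8, Zfp488, Gpr17, Cspg4 and, in olfactory bulb, Ermn, which were lost without olfactory bulb replicate 1 (0.23, 0.17, 0.31, 0.33 and 0.39). Without cortex replicate 1, those of Sox8, Zfp488, Gpr17 and Cspg4 were lost too (adjusted p = 0.0524, 0.0949, 0.0892 and 0.0821). Cortex replicate 3 decided those of Sox8, Zfp488 and Cspg4 as well (adjusted p = 0.081, 0.218 and 0.0661). Leaving out olfactory bulb replicate 2 ended all of these calls but that of Zfp488, which either cerebellum library ended. That of Tcf7l2 was lost without cerebellum replicate 1 (adjusted p = 0.0657), and that of Ermn between cerebellum and olfactory bulb without cerebellum replicate 1 (adjusted p = 0.281) or either olfactory bulb library.

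Relative to their flanks, 1 of the 27 genes was higher in olfactory bulb than in cortex (3.08% of all genes) and 0 lower (2.56%). Against olfactory bulb, 1 was lower in cerebellum (12.1%) and 0 higher (10.6%). In cerebellum against cortex, 3 were higher, Omg (0.48, adjusted p = 0.00441), Trf, the iron carrier transferrin (0.31, adjusted p = 0.0220), and Ermn (0.27, adjusted p = 0.0308), and 1 was lower, Opalin, a myelin membrane glycoprotein (-0.33, adjusted p = 0.00703). Of all genes, 11.5% were higher and 11.7% lower in that comparison, and these counts do not set the 27 genes apart. Opalin was also lower than in olfactory bulb (-0.44, adjusted p = 0.00269) and Ermn higher in olfactory bulb than in cortex (0.35, adjusted p = 0.0275). Opalin had 0.684, 0.682 and 0.657 in cortex, 0.724 and 0.719 in the bulb and 0.715 and 0.685 in cerebellum, and was named after its values were seen. Leaving out single libraries ended the calls of Trf and Ermn (highest adjusted p = 0.139 and 0.254) and that of Opalin against cortex (adjusted p = 0.0837). No lineage factor or precursor gene was called. Of 6 astrocyte markers, 6 levels were higher in cerebellum than in cortex and 1 was higher relative to its flanks (Slc1a2), and of 6 microglia markers 3 levels were higher and 2 relative to their flanks, whereas 4 of 6 neuron markers and 6 of 6 granule neuron markers were lower than cortex relative to their flanks. Among all genes, 55.1% of levels were higher, and 11.5% were higher and 11.7% lower relative to their flanks.

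**Figure D5:**
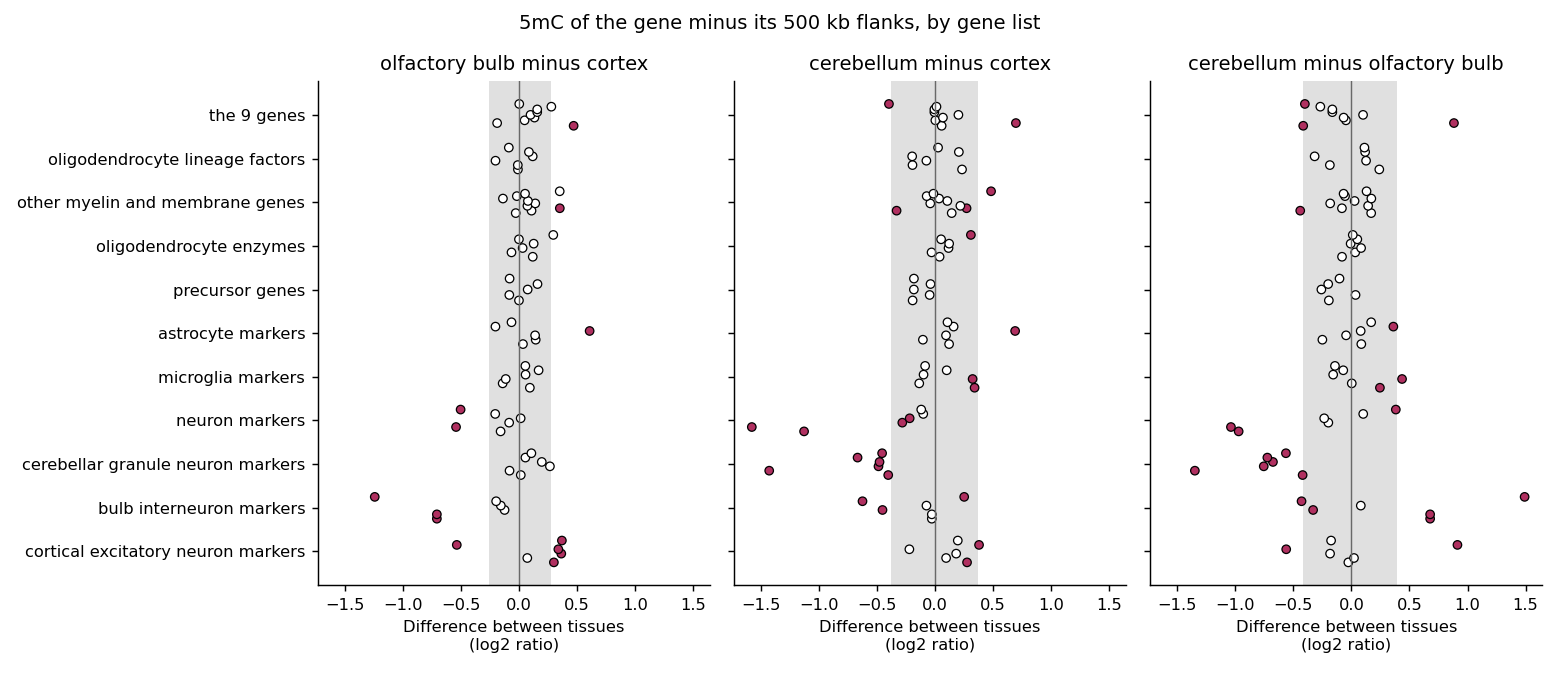
Difference between tissues in 5mC of the gene relative to its 500 kb flanks (log2 ratio, horizontal axis) for the 9 genes and the marker lists, one point per gene; grey bands span the 5th to 95th percentiles of all genes and filled points passed an adjusted p of 0.05. The granule neuron markers lie left of 0 in both comparisons with cerebellum, and most oligodendrocyte genes lie within the grey band.

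Genes with 5mC levels nearest to those of a member over the 7 libraries were sought by Euclidean distance. The search covered 21318 genes more than 1 Mb from every member. Other genes of these lists were not among those nearest, but the lists hold few of the 21318 genes. That outcome was likely in any case and says nothing about the members. The nearest genes were Mfap1a and Ehmt1 for Mbp (distances 0.0243 and 0.0255) and Gpatch1 and Ncald for Mobp (0.0153 and 0.0205). For Mag they were Fam107b and Fundc1 (0.0104 and 0.0173), and for Cnp Dnajb4 and Eif2ak3 (0.0166 and 0.0191). For Mog they were Ckb and Trmt61a, which share a bin with levels of 0.485, 0.505 and 0.599 (0.0413), and for the Olig bin 2700081O15Rik and Rtn3, which share a bin too (0.0431). Sox10 lay nearest to Mrps33 and Atp2a2 (0.0273 and 0.0294) and St18 to Cyp2b10 and Gm5799 (0.0132 and 0.0151).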

How the data were processed

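5mC by oxBS-seq (7 libraries) and 5hmC by TAB-seq (9 libraries) were analysed as deposited. The authors mapped paired reads uniquely to mm10 with Bismark (version not given in the sources used here), called CpG sites covered by at least 5 reads, and deposited for each library the fraction C/(C+T) per bin, 100 kb for 5mC and 1 Mb for 5hmC. The rule for averaging sites into a bin is not given in those sources, so a level may weight sites or reads unevenly. RNA-seq was not analysed here. Bins listed at 0 or 1 in any library were left out, which kept 25664 of 26327 bins of 100 kb and 2581 of 2641 of 1 Mb. Bins listed at 0 numbered 628 to 640 per oxBS-seq library. Coverage is unknown.

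A gene's level was the mean of the usable bins that overlap its span in GENCODE vM21, and flanks were the bins within 500 kb that do not. Levels were converted to log2(level/(1 - level)) and fitted with limma 3.58.1 in R 4.3.3, with one estimate of the spread over the 3 tissues, no covariate, and Benjamini-Hochberg adjustment over all genes or bins per comparison. limma also drew the spread of each gene or bin toward that of all of them, and gave all 1 Mb bins the same spread. A call is an adjusted p under 0.05. The fits were tested on simulated data with independent noise and no shift shared by a whole library. That test therefore says nothing about calls under such shifts, which these data have. Sequence features were counted on GRCm38.p6 with Python 3.11.15. 5mC per 1 Mb was the mean of the usable 100 kb bins.

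Members and marker lists were chosen with earlier results of these data known. Besides the 9 members, the genes named are, per list and comparison, up to 2 higher and 2 lower with the largest called change in level, the 2 genes nearest to each member, and those stated to be named after their values were seen. Alternatives were the fraction scale, limma's trend and robust options, all bins with levels limited to 0.001 to 0.999, centring on library medians, the start-site bin alone, 250 kb flanks, replicate blocks, neighbours on both sides for 5hmC, and leaving out each library.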

Additional observations from a re-analysis of the deposited data

Results flagged for a closer look

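In all, 6 differences stood out because 5mC of a gene relative to its 500 kb flanks was not the same in 2 tissues by limma's test of the difference itself. For Mbp the log2 ratio of the gene minus its flanks differed by 0.47 for olfactory bulb minus cortex and by -0.41 for cerebellum minus olfactory bulb. For Mog the value was 0.69 for cerebellum minus cortex and 0.88 for cerebellum minus olfactory bulb. For St18 it was -0.40 for cerebellum minus cortex and -0.40 for cerebellum minus olfactory bulb. No explanation was tested.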

How the results depend on the processing

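Over all alternatives, single values kept their side of the threshold 2273 times (some of those never called changed sign), lost the call 175 times and gained one 45 times, and 39 others turned direction. Groups of 2 or 3 libraries limit every call, and with 1 library left in a tissue the fit assumes that it varies like the others. In comparisons with such a tissue fewer of all genes and bins were called too, so a lost call need not be particular to a member. Leaving out each library in turn gave 0 to 4 loci for 5mC level per gene in olfactory bulb against cortex (0 without olfactory bulb replicate 1), 0 to 1 relative to flanks (0 without the same library), 1 to 8 of the 14 bins (1 and 4 without olfactory bulb replicates 1 and 2), and, for 5mC per 1 Mb, 1 to 4 in olfactory bulb against cortex, 3 to 7 in cerebellum against cortex (3 without cerebellum replicate 1) and 1 to 4 in cerebellum against olfactory bulb. With libraries centred on their medians, 1802, 9078 and 7750 of all 21718 genes and 4802, 12841 and 11130 of 25664 bins of 100 kb were called. For 5mC per 1 Mb in cerebellum against olfactory bulb, 1816 of 2581 bins were. Among the members, centring on library medians gave 0, 3 and 3 loci in place of 4, 6 and 1 for level per gene, 2, 6 and 6 bins in place of 8, 12 and 3, and 5 in place of 2 for 5mC per 1 Mb in cerebellum against olfactory bulb. It turned cerebellum minus cortex to -0.31 for St18 and -0.21 for Mag per gene and, per bin, to -0.093 for St18 (from 6400001), -0.38 for Mag (from 30800001), -0.014 for Mobp, -0.020 for Cnp, -0.045 for Sox10, -0.063 for Olig2 and -0.085 for Mbp (from 82400001). For 5mC per 1 Mb it turned olfactory bulb minus cortex to -0.13 for Cnp, -0.18 for Sox10 and -0.17 for Mbp, cerebellum minus cortex to -0.15 for St18, -0.20 for Mag, -0.17 for Cnp, -0.12 for Sox10 and -0.053 for Olig2, and cerebellum minus olfactory bulb to -0.15 for St18. For 5hmC it turned olfactory bulb minus cortex to 0.090 for Cnp, 0.092 for Sox10 and 0.22 for Mbp. For 5hmC in cerebellum minus cortex it gave 0.56 for St18, 0.37 for Mag, 0.080 for Mobp, 0.43 for Cnp, 0.43 for Sox10, 0.45 for Olig2 and 0.38 for Mbp. For 5hmC in cerebellum minus olfactory bulb it gave 0.62 for St18, 0.45 for Mag, 0.13 for Mobp, 0.34 for Cnp, 0.34 for Sox10, 0.48 for Olig2, 0.18 for Mog and 0.16 for Mbp. These turns follow from subtracting the shift that all bins share. Among all features called, centring moved the share that was higher from 4.59% to 52.3%, 0.435% to 55.6% and 1.29% to 56.6% for 5hmC, from 98.9% to 49.1%, 96.5% to 58.0% and 87.1% to 56.2% for 5mC per 1 Mb, and from 94.5% to 47.1%, 94.2% to 51.4% and 82.1% to 51.0% per 100 kb bin. With 250 kb flanks St18 was above them by 0.21 in cortex and 0.22 in olfactory bulb and no locus differed between olfactory bulb and cortex (0 in place of 1), and with the start-site bin alone Mag was at -0.033 in cortex and the counts relative to flanks were 0 in place of 1 for olfactory bulb and 1 in place of 2 for cerebellum against cortex. With all bins kept, 5 bins in place of 8 were called in olfactory bulb against cortex and 1 in place of 2 for 5mC per 1 Mb in cerebellum against olfactory bulb. The cause of those last changes was not tested. 5hmC against neighbours on both sides had medians over the loci of 0.0156 (cortex), 0.00154 (olfactory bulb) and 0.0203 (cerebellum), in place of 0.0185, 0.00456 and 0.0113. Replicate numbers did not pair the libraries throughout: deviations of libraries with the same label number correlated from -0.0932 to 0.0290 in oxBS-seq and from -0.191 to 0.429 in TAB-seq. Between olfactory bulb and cerebellum in TAB-seq, same-number values were 0.391, 0.429 and 0.0566, and different-number values ran from -0.408 to 0.124. Whether those libraries are paired cannot be told, since such a correlation does not see a shift shared by a whole library. A replicate block by either set of numbers gave 4 in place of 2 calls for 5mC per 1 Mb in cerebellum against olfactory bulb and kept the other counts within 1.5 times the reported ones. By label numbers, Sox10 was not called in cerebellum minus cortex (0.21, adjusted p = 0.0890) and was called relative to flanks in cerebellum minus olfactory bulb (-0.27, adjusted p = 0.0423), and by library-name numbers it was called in olfactory bulb minus cortex (0.31, adjusted p = 0.0303).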
